A study of Solanum tuberosum with 9 samples.

Results

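Leaves of the bulk sample F’, whose extracts stimulated the growth of mustard seedlings, were compared with leaves of the bulk sample A’, whose extracts were highly phytotoxic, across the product classes of the potato genome. The members are the 3 raw count columns of each of these groups in the table that lists both, with A’ as the control, so that 6 of the 9 libraries of the study enter the main comparison. That table lists 23656 genes, and 19132 of them had enough reads to be tested. The plants belonged to the diploid hybrid population 15-1, a cross of a diploid Solanum hybrid with S. chacoense as the male parent, and were grown untreated in pots in a greenhouse from May to October. Fully expanded leaflets were collected at full anthesis. The submitters labelled the individuals behind every group as high in glycoalkaloids, and the groups differed in what leaf extracts did to mustard. Group A’ has high phytotoxic potential, group B’ has low phytotoxic potential, and group F’ shows hormesis, the label’s word for the stimulation of growth. Each bulk pooled leaves of 3 individuals, and the sources do not say whether the 3 libraries of a group came from separate plants or from repeats of the bulk. The p-values therefore measure only the spread between these libraries, which may be technical, and a bulk of 3 siblings carries its own mixture of parental alleles at each locus.

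Potato leaves make steroidal glycoalkaloids from cholesterol. Plants build cholesterol and the membrane phytosterols from shared precursors of the mevalonate pathway by demethylation, desaturation and reduction of the sterol ring and side chain, and glycosyltransferases then attach the sugars. Allelopathy is the effect of such compounds, of phenolics and of terpenes on neighbouring plants, and hormesis is the stimulation of growth by a low dose of an agent that is toxic at higher doses. Leaves also carry inducible defences, namely protease inhibitors, pathogenesis-related proteins and oxidative enzymes, which the hormones jasmonate, salicylate and ethylene control.

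The libraries held between 21299957 and 22517178 reads counted on genes, and between 22391 and 23095 genes were detected in each. Pearson’s r of log2 counts was between 0.984 and 0.9925 within a group and between 0.936 and 0.946 across groups. A’ replicate 1 and F’ replicate 2 lay farther from their group mates than the other libraries did, and no pair of libraries agreed within sampling noise. Expression is given as normalized counts, which are reads per library after scaling all 6 libraries to their mean effective size. They are not divided by gene length, so values are compared between groups for a gene and not between genes. Counts of B’ were scaled in a separate normalization of all 9 libraries, to the mean effective size of the A’ and F’ libraries there. Log2FC is the log2 of F’ over A’ as fitted by edgeR’s quasi-likelihood test, FDR is the Benjamini-Hochberg adjusted p-value of that test over all 19132 genes, and a DEG has an FDR under 0.05. For a single gene, the smallest two-sided p-value of an exact permutation test of 3 libraries against 3 is 0.1. In tissue pooled in bulk, fewer cells of a type and less RNA per cell cannot be told apart.

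DEGs made up 35.6% of the genes tested in the A’ vs. F’ comparison group, 17.5% with higher and 18.2% with lower expression in F’. The median Log2FC over all genes tested was 0.02. The counts of DEGs given for each class below stand against these shares. For 47.7% of the genes tested, called or not, the 3 libraries of A’ did not overlap with those of F’, so a lack of overlap is given for single genes as a description. Shares of DEGs were alike over most of the range of read counts, with 34.1% of genes below 50 mean normalized counts, 36.6% from 50 to 500 and 34.2% from 500 to 5000. Among the 589 genes with at least 5000 mean normalized counts, 45.2% were DEGs, and 198 of these were lower while 68 were higher in F’. The listed genes were sorted by the words of their product names into 49 classes, which hold 5678 of them, tested or not. The classes with the largest shares of DEGs were protease inhibitors at 85.7%, arabinogalactan and fasciclin-like proteins at 83.9%, terpene synthases at 80%, peroxidases with laccases and polyphenol oxidases at 75.9%, and endoglucanases with beta-galactosidases at 75%. At the other end stood the plastid and mitochondrial ribosomal proteins at 12.8%, the cytosolic ribosomal proteins at 15.3% and the NLR immune receptors at 22.5%. Of 25 listed terpene synthases only 10 were tested, and members expressed in only 1 group pass the filter through that group. That raises the share of this class, which also counts 1 gene that is no terpene synthase itself. By number of DEGs, lower expression in F’ prevailed among arabinogalactan proteins, aquaporins, histones, xylan and secondary wall genes, protease inhibitors and sterol genes. Higher expression prevailed among terpene synthases, NAC and WRKY transcription factors, glutathione S-transferases and lectins. The summed reads of the latter classes had ratios of F’ over A’ of 2.06 for terpene synthases, 1.35 for NAC factors, 1.02 for WRKY factors, 0.997 for glutathione S-transferases and 0.899 for lectins.

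**Figure D1:**
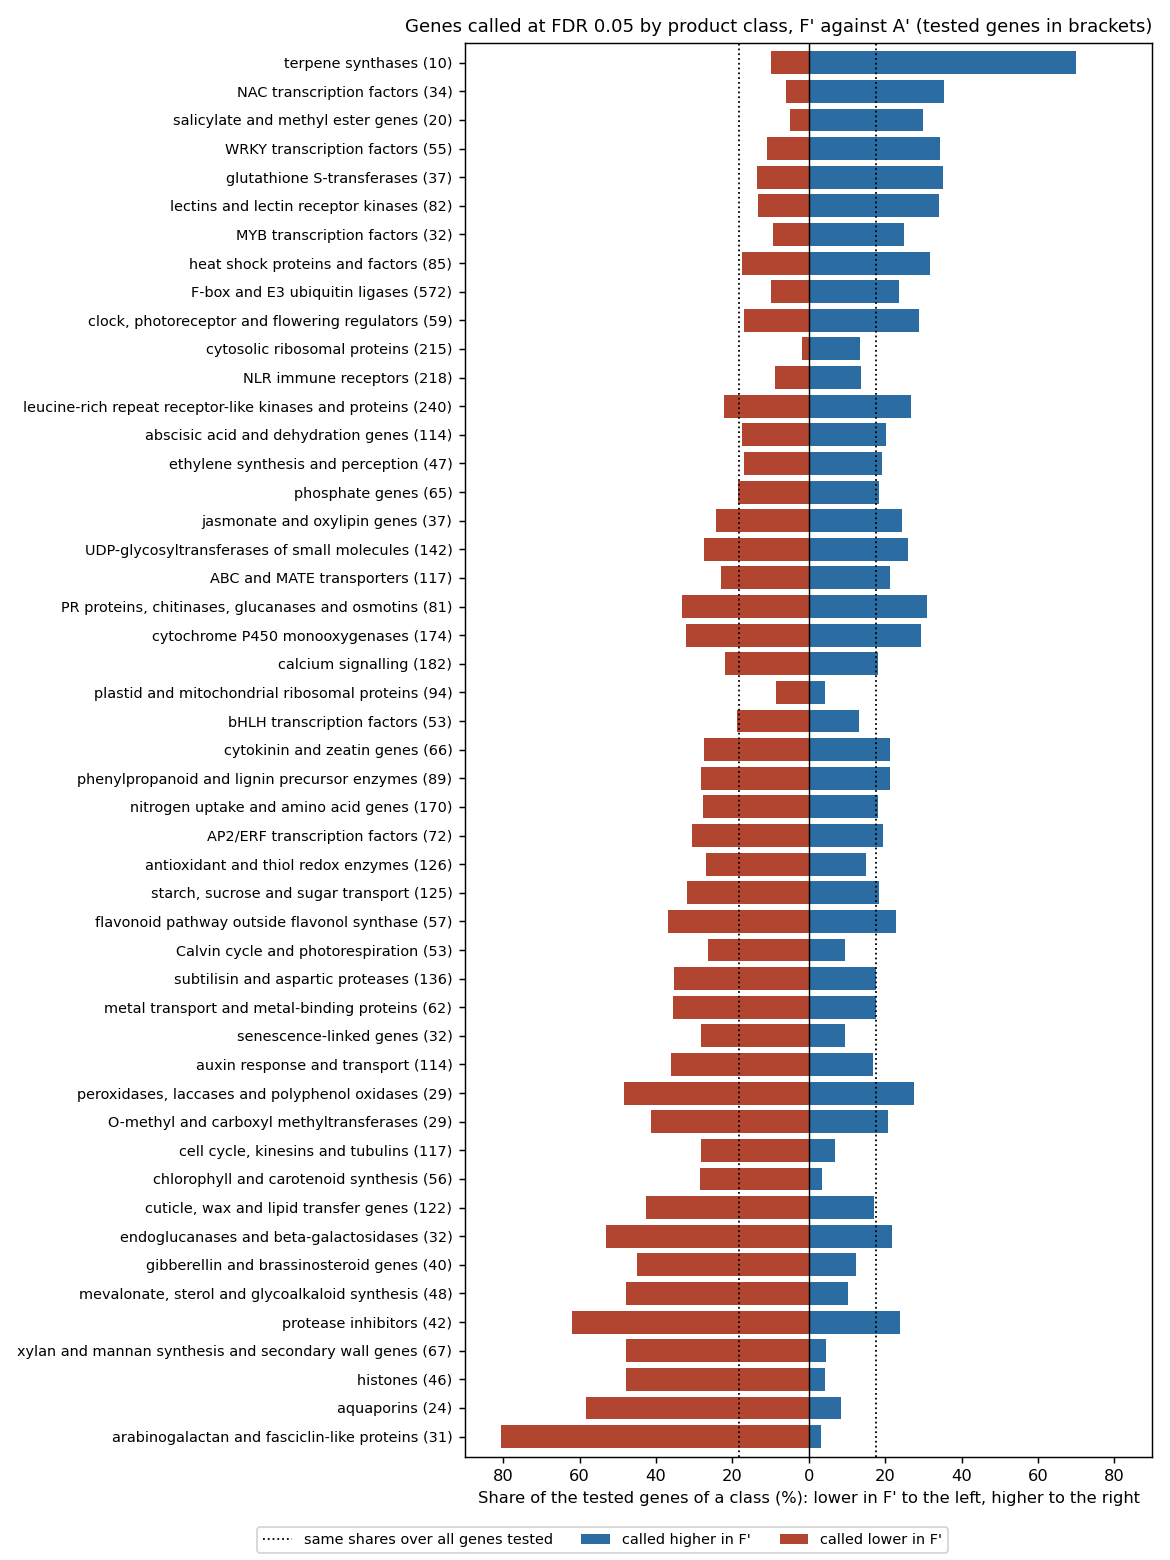
Share of the tested genes of each product class that were DEGs with higher (right, blue) or lower (left, red) expression in F’ than in A’, in percent, with the number of tested genes in brackets; dotted lines mark the shares over all genes, 17.5% and 18.2%. Terpene synthases reach 70% to the right, and arabinogalactan and fasciclin-like proteins reach 80.6% to the left. Only 10 of 25 listed terpene synthases were tested, and members expressed in only 1 group pass the filter through that group.

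Genes of sterol and glycoalkaloid synthesis were more often lower than higher in F’. Of 48 tested members, 23 were lower and 5 were higher, with a median Log2FC of −0.33. All 4 members with a Log2FC of at least 2 in size were lower, where 3.56% of all genes tested were DEGs of that size (1.7% higher and 1.86% lower in F’). They encode a sterol side chain reductase, a pair of methylsterol monooxygenases and the last glycosyltransferase of the route.

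The first of them was LOC102584296, a delta(24)-sterol reductase-like gene on chromosome 2, between positions 1204139 and 1207356 of its contig in the SolTub_3.0 assembly. Enzymes of this family reduce the side chain of sterols, and in potato and tomato such a reductase opens the branch to cholesterol. Normalized counts ran to 4858, 5888 and 5409 in A’ and to 429, 424 and 404 in F’. The lowest A’ library thus stood far above the highest F’ library, and the mean was 12.8-fold lower in F’ (Log2FC −3.68, standard error 0.13, FDR 4.53e-10 by edgeR’s quasi-likelihood test). A second gene of that product name on the same chromosome, LOC102604696, had 7749, 7839 and 7359 counts in A’ and 4677, 5681 and 4858 in F’, a far smaller difference with a Log2FC of −0.59 and no overlap between the groups, as in 47.7% of all genes tested.

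The C-4 methylsterol monooxygenases remove methyl groups from the sterol ring, and each of their 2 families held a gene that was lower in F’. LOC102606141, methylsterol monooxygenase 1-1-like on chromosome 1, had 1685, 1382 and 1384 counts in A’ against 180.3, 167 and 173 in F’ (Log2FC −3.09). LOC102589817, methylsterol monooxygenase 2-2-like on chromosome 6, had 2361, 2029.5 and 2507 counts in A’ against 298, 298 and 357 in F’ (Log2FC −2.86). The F’ libraries lay close together for both genes, and every A’ library was more than 5-fold above them.

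Further along the route, LOC102595277, a delta(14)-sterol reductase, had 722, 704 and 658 counts in A’ and 316, 343 and 269 in F’. The delta(7)-sterol-C5(6)-desaturase LOC102587419 had 2792, 2834 and 2986 in A’ and 1252, 1584 and 1342 in F’. Log2FC values were −1.17 and −1.04, with no overlap of the groups. The last reductase of cholesterol synthesis is represented by a pair of 7-dehydrocholesterol reductase-like genes. LOC102604909 had 1212, 1117 and 1272 counts in A’ and 480.2, 405 and 463 in F’ (Log2FC −1.42, FDR 7.48e-07 by edgeR’s quasi-likelihood test), whereas LOC102589505 had 2052, 2058 and 2186 in A’ and 2353, 2574 and 2382 in F’ (Log2FC 0.22, FDR 0.146 in the same test), so only the former was a DEG. Sterol 14-demethylase, LOC102601151, had a Log2FC of −0.86. Its F’ replicate 2 was the highest of the F’ libraries, with counts of 4524, 6428 and 4816 in F’ and 8911, 10084 and 9678 in A’.

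LOC102577928, not placed on a chromosome, is annotated as rhamnose:beta-solanine/beta-chaconine rhamnosyltransferase, the enzyme that adds the final sugar of solanine and chaconine. It had 1899, 1708 and 1847 normalized counts in A’ and 219, 245 and 208 in F’, an 8.13-fold difference as fitted (Log2FC −3.02, standard error 0.12, FDR 1.46e-09 by edgeR’s quasi-likelihood test). The groups were far apart and their libraries agreed closely within each. Reads of near-identical copies in such glycosyltransferase families may have been divided between loci when they were counted.

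The members with higher expression in F’ included early steps. LOC102577899, 3-hydroxy-3-methylglutaryl-coenzyme A reductase 2, an entry enzyme of the mevalonate pathway, had 193, 250.4 and 259 counts in A’ and 530.1, 695 and 559 in F’ (Log2FC 1.34). Squalene monooxygenase-like LOC102579136, which makes the epoxide that is cyclized to sterols, had 7847, 8074 and 8139.6 in A’ and 11648, 14678 and 11514 in F’ (Log2FC 0.65). The libraries of A’ and F’ did not overlap for either gene, which also held for 47.7% of all genes tested.

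**Figure D2:**
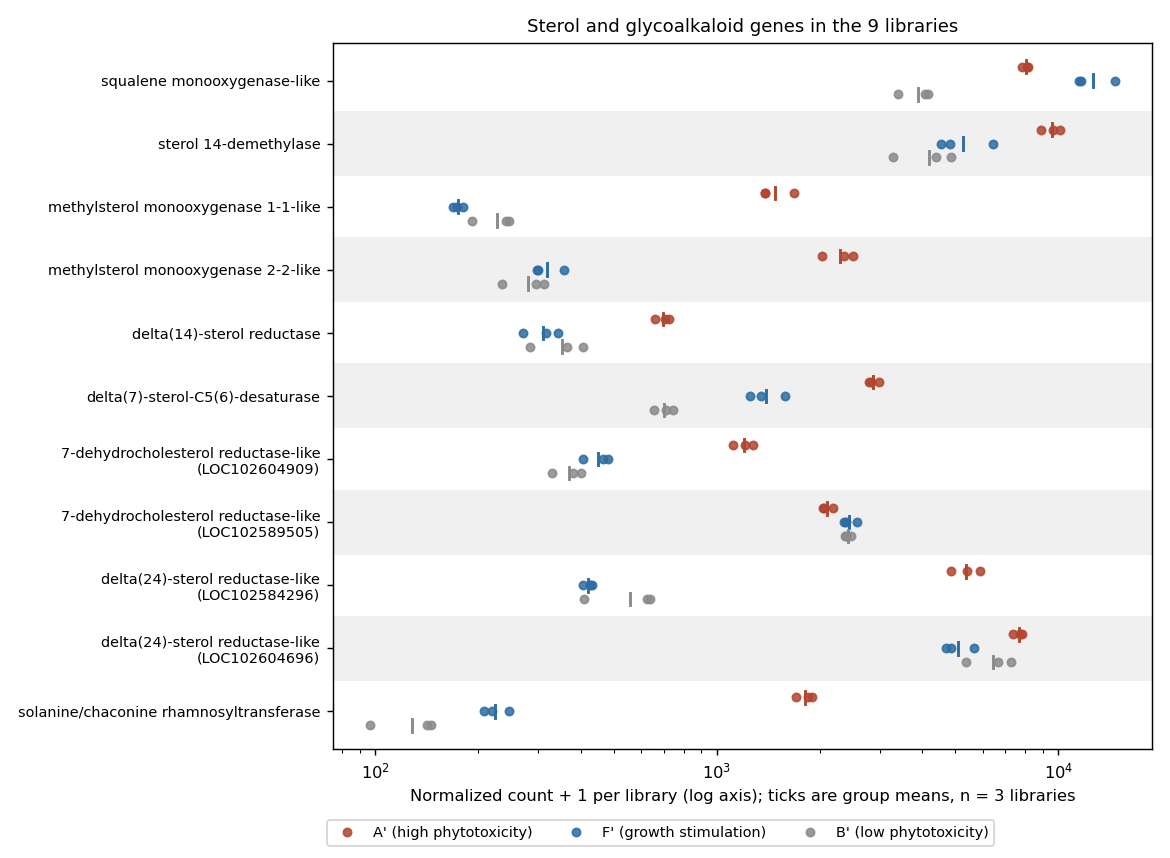
Normalized count plus 1 (log axis) of 11 sterol and glycoalkaloid genes in the 3 libraries of A’ (red), F’ (blue) and B’ (grey), 1 point per library with a tick at the group mean. The delta(24)-sterol reductase-like gene LOC102584296 has a mean of 5385 in A’ and 419 in F’, while the 7-dehydrocholesterol reductase-like gene LOC102589505 has means of 2099 in A’ and 2436 in F’.

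Group B’, which shares high glycoalkaloids with both other groups, allowed a check of whether these values set F’ apart. It was compared with F’ in a joint fit of all 9 libraries, in which 32.8% of 19587 genes tested differed, 15.2% with higher and 17.6% with lower expression in F’. This comparison uses the same F’ libraries as the main one. For the delta(24)-sterol reductase-like gene LOC102584296, the B’ libraries had 622, 636 and 409 counts, and the difference from F’ did not pass the test (Log2FC of F’ over B’ −0.41, FDR 0.0581 by edgeR’s quasi-likelihood test). Methylsterol monooxygenase 2-2-like had 296, 310.3 and 234 in B’, and its difference from F’ did not pass either (Log2FC 0.18, FDR 0.373 in the same test). The rhamnosyltransferase was lower still in B’, at 145, 141 and 95.7 counts, so F’ was above it (Log2FC 0.81). Of the 48 genes of the class, 7 were higher and 9 were lower in F’ than in B’, with a median Log2FC of 0.01.

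Terpene synthases, which make the volatile and defensive terpenes of leaves, were mostly higher in F’. Only 10 of 25 listed members had enough reads, 7 of these were higher and 1 was lower, with a median Log2FC of 1.33 that became 2.06 without A’ replicate 2. Members that are expressed in only 1 group pass the filter through that group, so the count of tested members is not a count of the family. LOC102598478, an (-)-alpha-terpineol synthase-like gene of monoterpene synthesis, had 82.6, 96.4 and 75.2 counts in A’ and 574, 655 and 567 in F’ (Log2FC 2.82, FDR 5.29e-09 by edgeR’s quasi-likelihood test). A second alpha-terpineol synthase-like gene, LOC102599040, had at most 3 reads in every A’ library and 21, 30 and 41 reads in F’, which makes it at least 8.98-fold higher in F’. The sesquiterpene gene LOC102583484, vetispiradiene synthase 3-like, of the phytoalexin branch in Solanaceae, had 12.1, 15.4 and 8.72 counts in A’ and 83, 64.6 and 69.8 in F’ (Log2FC 2.57). For these 3 genes each F’ library was above every A’ library, where 47.7% of all genes tested had no overlap in either direction. (-)-Germacrene D synthase-like LOC102598796 moved less against A’, with 231, 238 and 215 counts in A’ and 346, 284 and 409.8 in F’, and its mean in B’ was 38.3 (Log2FC of F’ over B’ 3.17). The 1 lower member was LOC102582972 on chromosome 6, annotated as a chloroplastic cis-transferase of dimethylallyl groups, which makes a terpene precursor and is no terpene synthase itself. It was placed in the class by its product name and had 65, 90 and 95 reads in A’ and 1, 0 and 3 in F’. F’ was therefore at least 31.6-fold below A’, and B’ had 77.2, 92.8 and 83.4 normalized counts.

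Cytochrome P450 monooxygenases, the oxygenases of secondary and hormone metabolism, held 51 genes that were higher and 56 that were lower among 174 tested, or 61.5% against 35.6% of all genes. LOC102582216, P450 82C4-like on chromosome 4, a product name from Arabidopsis, had 17.6, 17.4 and 22.9 counts in A’ and 509, 656 and 504 in F’ (Log2FC 4.84, FDR 9.63e-10 by edgeR’s quasi-likelihood test). B’ lay with A’, at 26.3, 19.4 and 26.2 counts, so that only F’ showed the gene at a high level, 28.6-fold above A’ and 23-fold above B’. P450 71D11-like LOC102603333 had a mean of 219 in A’, 1332 in F’ and 2402 in B’, and was therefore higher in F’ than in A’ (Log2FC 2.60) but lower than in B’ (Log2FC −0.86). The lowest gene of the class was LOC102602896, with Log2FC between −10.48 and −9.85 across the fit and its alternatives. Another lower P450 was LOC102604954, premnaspirodiene oxygenase-like of sesquiterpene oxidation, with 81.5, 89.3 and 80.7 counts in A’ and 12.5, 3.03 and 11.9 in F’ (Log2FC −3.15).

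Flavonoid genes other than flavonol synthases were more often lower than higher in F’ (21 and 13 of 57), and their summed reads hardly differed, with a ratio of 1.01. Kaempferol 3-O-beta-D-galactosyltransferase-like LOC102580477, which decorates a flavonol, had 523, 561 and 510.2 counts in A’ and 9.82, 1.01 and 11 in F’ (Log2FC −6.13, FDR 2.13e-09 by edgeR’s quasi-likelihood test). The F’ counts were near zero, and the fold rests on few reads in that group. Flavonoid 3’-monooxygenase-like LOC107062136 had a Log2FC of −2.90. In the other direction, anthocyanidin 3-O-glucosyltransferase 2-like LOC102602182 had 81.5, 61.6 and 51.2 counts in A’ and 237, 299 and 270.1 in F’ (Log2FC 2.05), and flavone 3’-O-methyltransferase 1-like LOC102602154 had 329, 288 and 325 in A’ and 870.2, 772 and 817 in F’ (Log2FC 1.38). The groups did not overlap for either gene, against 47.7% of all genes tested.

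Among phenylpropanoid and lignin precursor enzymes, 19 of 89 genes were higher and 25 were lower. The P450 98A3-like gene LOC102578406, of a family that hydroxylates phenylpropanoid esters, had 4.41, 5.13 and 8.72 counts in A’ and 90.1, 59.5 and 76.3 in F’ (Log2FC 3.61). Omega-hydroxypalmitate O-feruloyl transferase LOC102578335, which acylates suberin monomers, had 1800, 1707 and 1641 in A’ and 372, 411 and 311 in F’ (Log2FC −2.23). Of 29 O-methyl and carboxyl methyltransferases, 12 were lower and 6 were higher. The 5 with a Log2FC of at least 2 in size were all lower in F’. Salicylate carboxymethyltransferase-like LOC102578543, an enzyme of methyl salicylate synthesis, had 214, 147 and 233 reads in A’ and 1, 1 and 0 in F’, so that it was at least 75.7-fold lower. In B’ it had 142, 153 and 110.4 normalized counts and was also above F’ there (FDR 5.17e-08 by edgeR’s quasi-likelihood test). Trans-resveratrol di-O-methyltransferase-like LOC102601252 had 90.3, 82.1 and 93.7 counts in A’ and 4.46, 3.03 and 3.67 in F’ (Log2FC −4.52), and its B’ mean was 0.589.

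The UDP-glycosyltransferases of small molecules were called in 53.5% of 142 cases, with 37 higher and 39 lower. The lowest gene of this class was the kaempferol 3-O-beta-D-galactosyltransferase-like LOC102580477 given above (Log2FC −6.13). Zeatin O-glucosyl- and O-xylosyltransferases, which attach sugars to the cytokinin zeatin, were among both its higher and its lower genes. LOC107061998, zeatin O-glucosyltransferase-like, had 2.2, 5.13 and 4.36 counts in A’ and 126, 118 and 102 in F’ (Log2FC 4.83). LOC107061997, zeatin O-xylosyltransferase-like, had 9.91, 4.1 and 5.45 in A’ and 71.4, 63.5 and 88.2 in F’ (Log2FC 3.51). On the lower side, LOC107060850 on chromosome 5 had 186, 169 and 158 in A’ and 15.2, 13.1 and 8.27 in F’ (Log2FC −3.80). LOC107063221, not placed on a chromosome, had 104, 126 and 99.2 in A’ and 10.7, 8.07 and 9.19 in F’ (Log2FC −3.53), and LOC107062160 on chromosome 5 had a Log2FC of −2.69. For each of the 5 genes the A’ and F’ libraries did not overlap, against 47.7% of all genes tested.

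The zeatin transferases with higher expression lay on the contig of chromosome 4 that also holds P450 82C4-like, a pattern noticed in the data and given without a test. Along this contig, LOC107061996, LOC107061997 and LOC107061998 start at positions 495765, 496903 and 518286, and P450 82C4-like lies between positions 1090758 and 1096051. The contig holds 71 tested genes, with 14 DEGs higher and 10 lower in F’, where 17.5% and 18.2% of all genes tested were. Of the DEGs on the contig, 7 had a Log2FC of at least 2, and none had a Log2FC of −2 or less. The share past that cutoff was 9.86%, against 3.56% of all genes. The contig was picked for genes that are among the 7, so its share was raised by that choice and tests nothing. Among 936 contigs with tested genes, 14 contigs held at least 7 such genes, and the most on any contig was 12. Of the 9 zeatin transferase genes tested there, 4 were higher in F’ and 5 were not called. LOC107062006, zeatin O-xylosyltransferase-like, had 1343, 1106 and 1134 counts in A’ and 1347, 1611 and 1388 in F’ with a Log2FC of 0.28 and an FDR of 0.0944 by edgeR’s quasi-likelihood test. The 7 genes include LOC102601626, a putative late blight resistance protein homolog R1B-17, which had 15.4, 13.3 and 18.5 counts in A’ and 195, 186 and 152 in F’ (Log2FC 3.48).

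**Figure D3:**
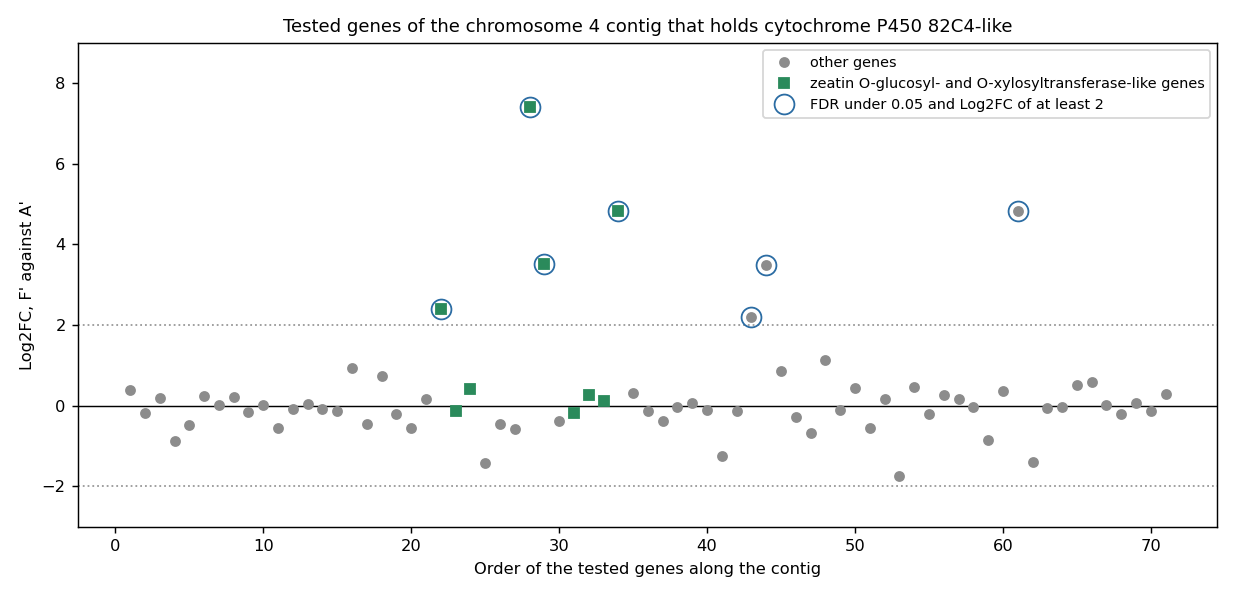
Log2FC of F’ against A’ for the 71 tested genes of a chromosome 4 contig in their order along it, with zeatin transferase-like genes as green squares and the 7 genes with an FDR under 0.05 and a Log2FC of at least 2 ringed. The ringed genes, among them P450 82C4-like at 4.84, are scattered among genes without a ring, some next to each other; the highest square is LOC107061996, which had 0 reads in every A’ library, so that its fitted value is no measure of size.

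Protease inhibitors, proteins that block the digestive enzymes of insects and microbes, were the class with the largest share of DEGs. Of 42 tested, 26 were lower and 10 were higher in F’, with a median Log2FC of −1.09 against 0.02 for all genes. Summed over all 49 listed members, normalized counts reached 121209, 97402 and 116633 in A’ and 45058, 43911 and 48525 in F’, a ratio of 0.41. The libraries of A’ thus held more reads of this class than any library of F’.

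Kunitz-type and aspartic protease inhibitors of chromosome 3 and of unplaced contigs carried much of that difference. Aspartic protease inhibitor 3, LOC102604582, had 37175, 30156 and 36784 counts in A’ and 9245, 10546 and 9563 in F’ (Log2FC −1.83, FDR 1.74e-07 by edgeR’s quasi-likelihood test). The Kunitz-type serine protease inhibitor DrTI-like LOC102593157 had 11202, 9366 and 9816 in A’ and 799.7, 939 and 981 in F’ (Log2FC −3.48). Aspartic protease inhibitor 8, LOC102604256, had 2059, 1789 and 1872 in A’ and 146, 163 and 169 in F’ (Log2FC −3.58). For each of these genes the lowest A’ library was several times the highest F’ library.

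Inhibitors of other families were also lower. Proteinase inhibitor type-2 LOC102605595, of the wound-inducible family that blocks serine proteases, had 10079, 7106 and 10018 counts in A’ and 3635, 3778 and 3865 in F’ (Log2FC −1.27). Cysteine protease inhibitor 1-like LOC102594249 had 6428, 5348 and 6478 in A’ and 1208, 1244 and 1242 in F’ (Log2FC −2.30). Cysteine protease inhibitor 8-like LOC102577909 had 105, 71 and 112 reads in A’ and at most 3 in every F’ library, and was at least 36.7-fold lower. Some inhibitors had higher expression in F’. Proteinase inhibitor PSI-1.2-like LOC102583996 had 13.2, 13.3 and 10.9 counts in A’ and 106, 103 and 121 in F’ (Log2FC 3.13), and the Kunitz-type trypsin inhibitor alpha chain-like LOC102592480 had 4.41, 13.3 and 8.72 in A’ and 89.2, 71.6 and 113 in F’ (Log2FC 3.34). Inhibitors of this kind occur in many near-identical copies, so the values of single loci are uncertain where reads could have been assigned to more than 1 copy. Against B’, 7 members were higher and 14 were lower in F’, with a median Log2FC of −0.25. DrTI-like had 1385, 1536 and 1231 counts in B’, and its Log2FC of F’ over B’ was −0.62.

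**Figure D4:**
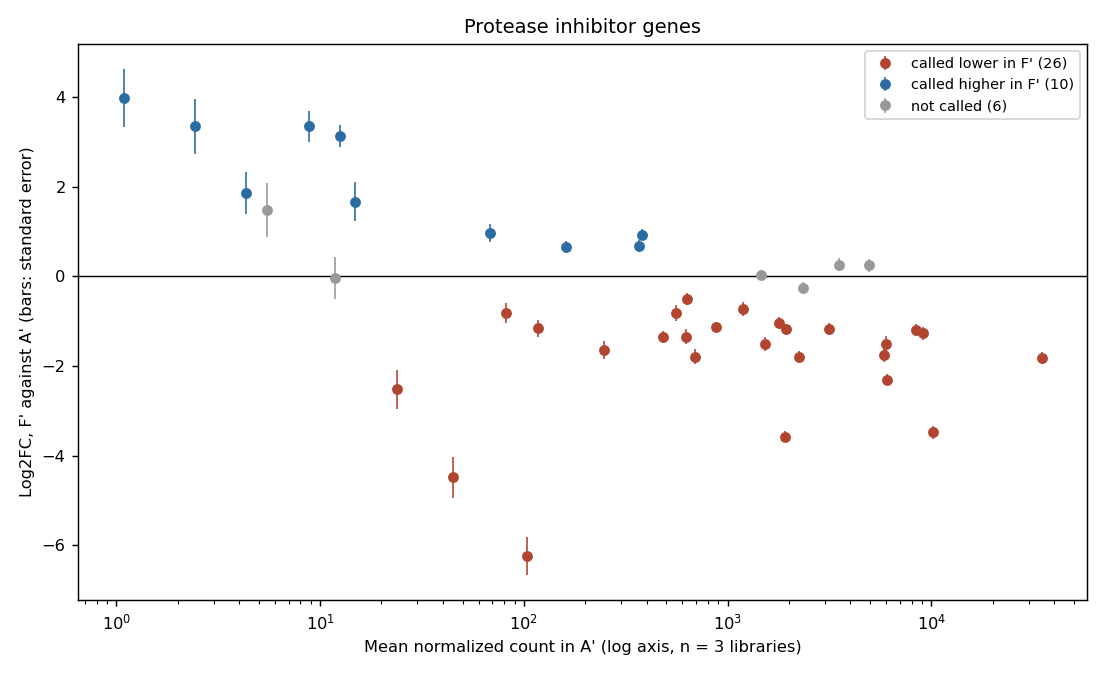
Log2FC of F’ against A’ (with its standard error) of the 42 tested protease inhibitor genes against their mean normalized count in A’ (log axis), coloured by call. The 26 genes called lower spread over the whole range of read counts, from few reads to aspartic protease inhibitor 3 at a mean of 34705, and each of the 10 called higher has fewer reads in A’ than cysteine protease inhibitor 1-like, at 6085.

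Pathogenesis-related proteins, chitinases, glucanases and osmotins, which attack microbial cell walls or membranes, were divided between the directions (25 higher and 27 lower of 81). Their summed reads in F’ were 1.41 times those in A’, and 6 of the 7 members with a Log2FC of at least 2 in size were higher. The sums were between 49221.5 and 57267 in A’ and between 67518 and 85959 in F’. Endochitinase 4-like LOC102580398 alone had means of 8437 in A’ and 18192 in F’. Against B’, 15 members were higher and 33 were lower in F’, with a median Log2FC of −0.37. Osmotin-like protein OSML13 LOC102583784 had 299, 286 and 366 counts in A’ and 1782, 2148 and 1849 in F’ (Log2FC 2.60). In B’ its libraries had 7536, 8488 and 8200.3, so F’ lay between the other groups (Log2FC of F’ over B’ −2.07). The acidic glucan endo-1,3-beta-glucosidase LOC102595473 also lay between them, with means of 60.6 in A’, 500.5 in F’ and 1142 in B’. Acidic 27 kDa endochitinase LOC102588301 had 22, 15.4 and 20.7 in A’ and 202, 154 and 204 in F’ (Log2FC 3.27). Endochitinase 4-like LOC102580398, a gene with many reads, had 8777, 7833 and 8702 in A’ and 15082, 23825 and 15669 in F’ (Log2FC 1.11), and F’ replicate 2 was the highest library. The basic glucan endo-1,3-beta-glucosidase LOC102605226 went the other way, with 358, 323 and 314 counts in A’ and 62.5, 62.5 and 56 in F’ (Log2FC −2.46).

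WRKY transcription factors, regulators of defence genes, were higher in F’ in 19 of 55 cases and lower in 6. Against B’ the numbers were 8 higher and 25 lower. WRKY 71 LOC102602059 had 25.3, 16.4 and 10.9 counts in A’ and 135, 138 and 156 in F’ (Log2FC 3.02), and a second WRKY 71 gene, LOC102593379, had a Log2FC of 2.79. WRKY 70 LOC102581335, a factor of salicylate signalling in Arabidopsis, had 1199, 1125 and 1208 in A’, 446, 376 and 501 in F’ and 3595, 4389 and 5409 in B’. F’ was the lowest of the 3 groups for it (Log2FC −1.41 against A’ and −3.34 against B’). WRKY 6 LOC102577893 and WRKY 40 LOC102600986 shared that order, with Log2FC of −1.43 and −1.17 against A’ and of −3.31 and −4.04 against B’.

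Receptors and lectins were a mixed group. Leucine-rich repeat receptor-like kinases and proteins, which sense microbial or developmental peptides, were higher in 64 and lower in 53 of 240 cases, and 20 were higher and 8 lower with a Log2FC of at least 2 in size. The FLS2 receptor-like gene LOC107058375, named after the flagellin receptor, had 12.1, 13.3 and 12 counts in A’ and 182, 165 and 167 in F’ (Log2FC 3.77). A receptor-like kinase gene on chromosome 11, LOC102578733, had at most 3 reads in every A’ library and 89, 64 and 94 in F’, at least 23.9-fold higher. NLR immune receptors, which sense microbial effectors inside the cell, were DEGs in 22.5% of 218 cases, below the share over all genes. The 19 lower NLR genes became 9 without A’ replicate 2 and 11 without A’ replicate 3, and the 30 higher ones became 47 without F’ replicate 2. Of 82 lectins and lectin receptor kinases, 28 were higher and 11 were lower, the latter count being 4 without A’ replicate 2 or 3 and 6 without F’ replicate 3. A pair of chitin-binding lectin 1 genes were far lower in F’. LOC107059184 had 1527, 2122 and 2865 counts in A’ and 103, 169 and 102 in F’ (Log2FC −4.13), and LOC102603482 had 4694, 3496 and 3608 in A’ and 317, 485 and 372 in F’ (Log2FC −3.33). Another, LOC107058371, had a Log2FC of −1.41 and a mean of 161 in A’, with 60.9 in F’. It was picked after its values were seen and lies outside the 244 named genes whose stability is counted below.

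Calcium signalling genes were DEGs in 40.1% of 182 cases, 33 higher and 40 lower, near the 35.6% of all genes tested. Glutamate receptor 3.6-like LOC102594716, of a family of calcium channels in wound signalling of Arabidopsis, had 3.31, 8.21 and 1.09 counts in A’ and 95.5, 144 and 84.5 in F’ (Log2FC 4.62). A plasma membrane calcium-transporting ATPase 12-like gene, LOC107058119, had 387, 710 and 681 in A’ and 158, 181 and 171 in F’ (Log2FC −1.80). Both differences exceeded the spread between libraries, in opposite directions.

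Gibberellin and brassinosteroid genes, which promote cell elongation, were lower in 18 and higher in 5 of 40 cases (median Log2FC −0.44), and the 7 with a Log2FC of at least 2 in size were all lower. The higher count fell to 3 without A’ replicate 2 or F’ replicate 3. GAST1-like LOC102603432, of a family of small cysteine-rich proteins induced by gibberellin in tomato, had 2457, 2039 and 2465 counts in A’ and 119, 131 and 131 in F’ (Log2FC −4.19, standard error 0.14, FDR 3.55e-10 by edgeR’s quasi-likelihood test). GAST1 LOC102596260 on chromosome 2 had 2991, 2755 and 2849 in A’ and 303, 276 and 360.2 in F’ (Log2FC −3.19). B’ lay with A’ for both genes, at 2027, 2067 and 2068 for GAST1-like and 3542, 3479.6 and 3610.4 for GAST1, so that F’ alone was low (Log2FC of F’ over B’ −4.02 and −3.50). Gibberellin 2-beta-dioxygenase 8 LOC102591012, which inactivates gibberellins, was also lower, with 58.4, 62.6 and 73 counts in A’ and 10.7, 8.07 and 10.1 in F’. The gibberellin receptors GID1B-like LOC102604924 and LOC102579350 were higher, with means of 303 in A’ and 697 in F’ for the former and Log2FC of 1.20 and 1.42.

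Auxin response and transport genes were lower in 41 and higher in 19 of 114 cases, with a median Log2FC of −0.28. The auxin-binding protein ABP19a-like gene LOC102602789, a germin-like protein, had 41698, 35145 and 38831 counts in A’ and 7027, 7814 and 7566 in F’ (Log2FC −2.37). It was one of the genes with the most reads among those at least 2-fold lower in F’, and B’ resembled A’ with 35496, 35694 and 22506. WALLS ARE THIN 1 LOC102580573, an auxin transporter of the vacuole needed for secondary walls in Arabidopsis, had 443, 385 and 414 in A’ and 48.2, 73.6 and 76.3 in F’ (Log2FC −2.65). Auxin response factor 17 LOC102588218 was higher, with 12.1, 20.5 and 8.72 counts in A’ and 103, 99.9 and 92.8 in F’ (Log2FC 2.81).

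Jasmonate and oxylipin genes were higher in 9 and lower in 9 of 37 cases. 12-Oxophytodienoate reductase 1-like LOC102579639, of a family that reduces the jasmonate precursor, had 647, 592 and 608 counts in A’, 2079, 1968 and 2270.4 in F’ and 546, 616 and 654 in B’. F’ was thus the highest group (Log2FC 1.77 against A’ and 1.79 against B’). Methyl jasmonate esterase (MJE) had 763, 653 and 701 in A’ and 1542, 1459.5 and 1628 in F’ (Log2FC 1.13), and alpha-dioxygenase 1-like LOC102583777 had a Log2FC of 1.10. On the lower side, the chloroplastic lipoxygenase 6-like gene LOC102583480 had 159, 218 and 202 counts in A’ and 87.5, 59.5 and 58.8 in F’.

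Abscisic acid and dehydration genes were higher in 23 and lower in 20 of 114 cases, the former count being 15 without A’ replicate 3. DEGs made up 37.7% of this class, near the 35.6% of all genes tested. The cold and drought-regulated protein CORA-like gene LOC102588734 had 7.71, 17.4 and 14.2 counts in A’ and 467, 461 and 367 in F’, a 32.4-fold difference as fitted (Log2FC 5.02, FDR 1.96e-09 by edgeR’s quasi-likelihood test). B’ lay between them, at 150, 183 and 120.2. Ethylene synthesis and perception genes were higher in 9 and lower in 8 of 47 cases. Salicylate and methyl ester genes were higher in 6 and lower in 1 of 20 cases. Their shares of DEGs, 36.2% and 35%, were also near that of all genes. Salicylic acid-binding protein 2 LOC102598255, which releases salicylate from its methyl ester in tobacco, had 12.1, 7.18 and 5.45 in A’ and 46.4, 56.5 and 68 in F’ (Log2FC 2.77).

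NAC transcription factors were higher in 12 and lower in 2 of 34 cases. JUNGBRUNNEN 1-like LOC102598949, named after a longevity regulator of Arabidopsis, had 7.71, 11.3 and 3.27 counts in A’, 89.2, 106 and 100.2 in F’ and 11.4, 9.72 and 8.99 in B’ (Log2FC 3.69 against A’ and 3.27 against B’). NAC 29-like LOC102591523 had 163, 118 and 143 in A’ and 767, 730.3 and 907 in F’ (Log2FC 2.51), and NAC 92 LOC102578811 had 73.8, 71.8 and 58.9 in A’ and 438, 398 and 444 in F’ (Log2FC 2.64). AP2/ERF factors were higher in 14 and lower in 22 of 72 cases, and the higher count was 8 or 9 when A’ replicate 2, A’ replicate 3 or F’ replicate 3 was left out. Against B’, 35 of 70 were lower in F’. ERF025-like LOC102601547 had 58.4, 70.8 and 75.2 counts in A’ and 13.4, 8.07 and 10.1 in F’ (Log2FC −2.67). RAP2-7 LOC102579807 had 50.7, 33.9 and 36 in A’ and 169.6, 55.5 and 169 in F’, where replicate 2 was much lower than the other libraries of its group. MYB48-like LOC102582409 showed the same in F’, with 399, 165 and 389.6 against 129, 82.1 and 111 in A’. In B’, replicate 3 was the high library for both, with 50, 42.4 and 160 counts for RAP2-7 and 118, 103 and 210 for MYB48-like. The cause of this split between libraries was not tested. Among bHLH factors, 7 of 53 were higher and 10 were lower, the lower count being 6 without A’ replicate 3 or F’ replicate 1. Together they made up 32.1%, near the 35.6% of all genes tested. bHLH66 LOC102592871 had 34.1, 43.1 and 33.8 counts in A’ and 277, 242 and 232 in F’ (Log2FC 2.75).

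Clock, photoreceptor and flowering regulators were higher in 17 and lower in 10 of 59 cases, but the 3 members with a Log2FC of at least 2 in size were all lower. PCL1-like LOC102600588, of the evening complex of the clock in Arabidopsis, had 141, 103 and 116 counts in A’ and 4.46, 5.04 and 1.84 in F’ (Log2FC −4.95). APRR1 LOC102593655, a pseudo-response regulator active at dusk in Arabidopsis, had 70.5, 82.1 and 89.4 in A’ and 11.6, 10.1 and 2.76 in F’ (Log2FC −3.29). EARLY FLOWERING 4-like LOC102603103, of the same evening complex, had 519.9, 354 and 439 in A’ and 103, 136 and 124 in F’ (Log2FC −1.86). F’ was low in every library for these 3 evening genes. GIGANTEA-like LOC102583457 had a Log2FC of −0.78. The morning factor LHY, LOC102601616, had 576, 695 and 663 counts in A’ and 829, 957 and 801 in F’ (Log2FC 0.42, FDR 0.0156 by edgeR’s quasi-likelihood test), a small difference that was not called without A’ replicate 3, while its B’ mean was 137 (Log2FC of F’ over B’ 2.65). CONSTANS-LIKE 14 LOC102603812 had 416, 491 and 397 in A’ and 54.4, 51.4 and 46.9 in F’ (Log2FC −3.09), and a FLOWERING LOCUS T-like gene, LOC102579194, had 510, 419 and 349 in A’ and 81.2, 170.5 and 79 in F’ (Log2FC −1.96). The hour at which the leaves of each group were taken is not given in the sources used here, and its part in these values was not tested.

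Heat shock proteins and factors, chaperones of protein folding, were higher in 27 and lower in 15 of 85 cases, with the lower count at 8 without A’ replicate 3. The 17.4 kDa class I heat shock protein-like gene LOC102588416 had 16.5, 15.4 and 19.6 counts in A’ and 243, 253 and 279 in F’ (Log2FC 3.90). A chloroplastic small heat shock protein, LOC102584503, had at most 3 reads in every A’ library and 99, 83 and 92 in F’, at least 26.6-fold higher, and B’ had 65.8, 71.6 and 71.1 normalized counts (FDR 0.346 for F’ against B’ by edgeR’s quasi-likelihood test). DnaJ-like LOC102577512, a chaperone partner with many reads, had 26312, 25159 and 25196 counts in A’ and 54312, 59764 and 60516 in F’ (Log2FC 1.19). A heat shock cognate 70 kDa protein-like gene, LOC102595219, was higher in F’ than in both other groups, with means of 529 in A’, 2109 in F’ and 254 in B’. BAG6, LOC102592057, a co-chaperone regulator, had 4024, 7021 and 6507 in A’ and 16785, 9940.4 and 16219.9 in F’, and its F’ replicate 2 stood apart from its mates.

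Peroxidases, laccases and polyphenol oxidases were called in 75.9% of 29 cases, 14 lower and 8 higher. Peroxidase P7-like LOC102582282 had 16.5, 14.4 and 17.4 counts in A’, 195, 290.5 and 207 in F’ and 21.9, 11.5 and 11.4 in B’ (Log2FC 3.83 against A’ and 3.93 against B’). A second gene of that name, LOC102602226, had 73.8, 43.1 and 31.6 in A’ and 332, 531 and 359 in F’ (Log2FC 3.04), but another, LOC102582401, was lower with a Log2FC of −1.25. Catechol oxidase B (PPO), the browning enzyme of wounded tissue, had 341, 384 and 379 in A’ and 41.1, 33.3 and 41.3 in F’ (Log2FC −3.25). Glutathione S-transferases, which conjugate toxic compounds, were higher in 13 and lower in 5 of 37 cases. LOC102587200 had 88.1, 68.7 and 78.5 counts in A’ and 354, 347 and 413 in F’ (Log2FC 2.24). Antioxidant and thiol redox enzymes were higher in 19 and lower in 34 of 126 cases, and Cu-Zn superoxide dismutase 2 LOC102604743 had 119, 86.2 and 78.5 in A’ and 361, 348 and 401 in F’ (Log2FC 1.97). The copper protein cucumber peeling cupredoxin-like LOC102600778, outside these classes, had 55.1, 24.6 and 40.3 in A’, 856, 1155 and 922 in F’ and 77.2, 77.8 and 79.3 in B’, so F’ was the highest group by far (Log2FC 4.61 against A’ and 3.64 against B’).

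Starch and sugar genes were lower in 40 and higher in 23 of 125 cases. Beta-amylase PCT-BMYI LOC102577806, which breaks down starch, had 3199, 3913 and 3270.2 counts in A’ and 535, 568 and 521 in F’ (Log2FC −2.68). Sucrose-phosphate synthase 2 LOC102581151, of sucrose synthesis, had 804, 1180 and 1096 in A’ and 349, 332 and 299 in F’ (Log2FC −1.65), and the sugar exporter N3 LOC102598354 had 38952, 34164 and 37027 in A’ and 16586, 19091 and 18698 in F’ (Log2FC −1.02). All 3 were lower in every F’ library. The cell wall invertase CWINV3-like LOC102604100, which splits sucrose outside the cell, was higher, with 5.51, 9.23 and 5.45 counts in A’ and 66.9, 96.8 and 65.2 in F’ (Log2FC 3.47).

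Nitrogen uptake and amino acid genes were lower in 47 and higher in 31 of 170 cases. Ammonium transporter 1 member 2 LOC102578704 had 169, 173 and 144 counts in A’, 921, 1242 and 842 in F’ and 133, 113 and 77.7 in B’, so F’ was the high group (Log2FC 2.63 against A’ and 3.21 against B’). Tyrosine aminotransferase-like LOC102578536, of tyrosine breakdown, had 2.2, 4.1 and 4.36 in A’ and 171, 137 and 169 in F’ (Log2FC 5.43), and B’ was near F’ at 120.2, 111 and 98.9. L-asparaginase 2 LOC102584425, which releases nitrogen from asparagine, was lower with 1640.2, 1390.3 and 1324 in A’ and 149, 135 and 181 in F’ (Log2FC −3.22). Asparagine synthetase LOC102577576, which stores nitrogen in asparagine, was higher in F’ than in A’ with 545, 929 and 724 against 205, 239 and 172 (Log2FC 1.83) and lower than in B’, where the libraries had 3189.9, 4264 and 3585 (Log2FC −2.33). The pair of asparagine genes thus differed from A’ in opposite directions.

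Phosphate genes were DEGs in 36.9% of 65 cases, 12 higher and 12 lower, with the lower count at 7 without A’ replicate 3. That share was near the 35.6% of all genes tested. Inorganic phosphate transporter 1-4-like LOC102589570, a root-type importer in Arabidopsis, had 4.41, 7.18 and 1.09 counts in A’, 55.3, 43.4 and 58.8 in F’ and 0, 1.77 and 0 in B’, so only F’ reached more than a few reads (Log2FC 3.58 against A’). Among metal transport and metal-binding proteins, 22 of 62 were lower and 11 were higher. The copper chaperone CCH-like LOC102587395 had 77.1, 67.7 and 75.2 in A’ and 282, 266 and 340 in F’ (Log2FC 2.01), and zinc transporter 8-like LOC102578180 had 308, 273 and 273 in A’ and 94.6, 68.6 and 111 in F’ (Log2FC −1.63). ABC and MATE transporters were higher in 25 and lower in 27 of 117 cases, and the higher count was 14 without F’ replicate 1. Pleiotropic drug resistance protein 2-like LOC102594095, of the ABC exporters, had 7.71, 33.9 and 28.3 in A’ and 227, 157 and 154 in F’ (Log2FC 2.93).

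Aquaporins, the water channels of membranes, were lower in 14 and higher in 2 of 24 cases, with a median Log2FC of −0.74. The vacuolar TIP2-1 gene LOC102593526 had 403, 320.1 and 371 counts in A’, 33, 25.2 and 20.2 in F’ and 235, 269.6 and 213 in B’ (Log2FC −3.79 against A’ and −3.19 against B’). The plasma membrane PIP2-7 gene LOC102602321 had 1394, 1196 and 1417 in A’, 364, 402 and 378 in F’ and 1628, 1687 and 1421 in B’ (Log2FC −1.81 and −2.05). F’ was below both other groups for each. TIP1-1 LOC102591890 was lower than in A’ only, with means of 49966 in A’, 29885 in F’ and 29807 in B’. PIP2-1 LOC102596028 was 1 of the 2 higher genes, with 5314, 4785 and 5121 counts in A’ and 7298, 9457 and 7928 in F’ (Log2FC 0.70), the other being SIP1-2-like (SIP1, Log2FC 0.64).

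Cuticle, wax and lipid transfer genes, which build the water barrier of the leaf surface, were lower in 52 and higher in 21 of 122 cases (median Log2FC −0.35). A GDSL esterase/lipase gene, LOC102582015, had 666, 763 and 617 counts in A’ and 6.25, 20.2 and 7.35 in F’ (Log2FC −5.94, FDR 1.52e-09 by edgeR’s quasi-likelihood test). 3-Ketoacyl-CoA synthase 6-like LOC102579720, which elongates fatty acids for wax, had 130, 131 and 116 in A’ and 14.3, 17.1 and 17.5 in F’ (Log2FC −2.94). HOTHEAD-like LOC102603229, of cutin monomer oxidation in Arabidopsis, had 221, 163 and 135 in A’ and 15.2, 22.2 and 18.4 in F’ (Log2FC −3.22). All 3 had few reads in every F’ library. In contrast, ECERIFERUM 1-like LOC102595750, of alkane formation in wax, had 26.4, 16.4 and 16.4 counts in A’ and 331, 439 and 287 in F’ (Log2FC 4.15). The non-specific lipid-transfer protein 2-like gene LOC102598620 had 1382, 1496 and 1444 in A’, 6677, 6652 and 7869 in F’ and 13666, 17495 and 20401 in B’, so F’ lay between the other groups. Another gene of that name, LOC102588710, had at most 3 reads in each A’ library and 70, 74 and 75 in F’, at least 21.3-fold higher.

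Arabinogalactan and fasciclin-like proteins, glycoproteins of the cell surface, were almost uniformly lower. Of 31 tested, 25 were lower and 1 was higher, and the median Log2FC was −1.12. The higher count was 0 without A’ replicate 3 and 2 without A’ replicate 1. Summed over the 37 listed genes, normalized counts were 23155, 19181 and 22230 in A’ and 10400.1, 12714 and 10814 in F’, a ratio of 0.525 with no overlap between the groups. Fasciclin-like arabinogalactan protein 10 LOC102584452 had 2407, 1767 and 1885 in A’ and 485, 462 and 502 in F’ (Log2FC −2.06). Against B’, 15 members were lower and 2 were higher in F’, with a median Log2FC of −0.68.

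Genes of xylan and mannan synthesis and of secondary walls were lower in 32 and higher in 3 of 67 cases, and the 10 with a Log2FC of at least 2 in size were all lower. Glucomannan 4-beta-mannosyltransferase 9-like LOC102596604 had 141, 117 and 128 counts in A’ and 5.36, 5.04 and 8.27 in F’ (Log2FC −4.33). Endoglucanases and beta-galactosidases, which trim wall glucans and galactans, were lower in 17 and higher in 7 of 32 cases. Endoglucanase 6-like LOC102589512 had 1595, 1726 and 1650.4 counts in A’ and 303, 323 and 289 in F’ (Log2FC −2.44), and B’ resembled A’ at 1993, 1521 and 1075. Vascular markers moved with these classes. Of 15 tested vascular marker genes of 24 listed, 10 were lower and the others were not called, and their summed normalized counts were between 4078 and 4334 in A’ and between 2871 and 3184 in F’. The part of vascular tissue in the wall results was not tested.

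Subtilisin and aspartic proteases were lower in 48 and higher in 24 of 136 cases, and the 9 with a Log2FC of at least 2 in size were all lower. Subtilisin-like protease SBT1.7 LOC102579454, of a family that modifies seed coat pectin in Arabidopsis, had 1594, 1964 and 1764 counts in A’, 239, 143 and 231 in F’ and 3844, 3255 and 2728 in B’ (Log2FC −3.11 against A’), so F’ was the lowest group. F-box and E3 ubiquitin ligases, which mark proteins for breakdown, were higher in 135 and lower in 57 of 572 cases, or 23.6% and 9.97% against 17.5% and 18.2% of all genes tested. The F-box/FBD/LRR gene LOC102591128 had 18.7, 8.21 and 12 in A’ and 224, 111 and 217 in F’ (Log2FC 3.83).

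Histones, the proteins that package new DNA, were lower in 22 and higher in 2 of 46 cases (median Log2FC −0.46), whereas 14 were higher and 2 lower against B’. The higher count against A’ was 1 without A’ replicate 2, A’ replicate 3 or F’ replicate 3. Histone H3.2 LOC102581522 had 95.8, 106 and 94.8 counts in A’ and 32.1, 26.2 and 30.3 in F’ (Log2FC −1.73), and 16.7, 22.1 and 18 in B’. Histone genes are near-identical copies, so the values of single loci are uncertain. Cell cycle, kinesin and tubulin genes were lower in 33 and higher in 8 of 117 cases, and their summed reads had a ratio of 0.79. DEGs made up 35% of them, near the 35.6% of all genes tested, with 28.2% lower and 6.84% higher. Of 61 tested markers of dividing cells, 19 were lower and 4 higher (median Log2FC −0.19), and the summed reads of the 84 listed had a ratio of 1.05. Cyclin-dependent kinase inhibitor 7 LOC102581183, a brake of the cell cycle, had 137, 103 and 104 in A’ and 25, 17.1 and 29.4 in F’ (Log2FC −2.25), while inhibitor 4-like LOC102588247 had a Log2FC of 0.88.

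Cytosolic ribosomal proteins were DEGs in 15.3% of 215 cases, 29 higher (13.5%) and 4 lower (1.86%). Over all genes tested, 17.5% were higher and 18.2% were lower, so both shares were below those. The lower count was 2 without F’ replicate 1 and 8 without F’ replicate 2. The higher count depended on single libraries, with 57 without A’ replicate 1 and 13 or 14 without A’ replicate 2, A’ replicate 3 or F’ replicate 3. The 60S ribosomal protein L38-like gene LOC102598237 stood out with 167, 85.2 and 138 counts in A’ and 522, 726 and 654 in F’ (Log2FC 2.29). Plastid and mitochondrial ribosomal proteins were higher in 4 and lower in 8 of 94 cases, the lower count ranging from 2 without A’ replicate 3 or F’ replicate 1 to 15 without F’ replicate 2. Calvin cycle and photorespiration genes were lower in 14 and higher in 5 of 53 cases, the latter count being 2 without A’ replicate 2 and 3 without A’ replicate 3. Rubisco small chain 2C LOC102600888 had 31570.2, 26233 and 30889.6 counts in A’ and 15746, 13585 and 17804 in F’ (Log2FC −0.91). Of 56 chlorophyll and carotenoid synthesis genes, 16 were lower and 2 were higher, the lower count being 9 without A’ replicate 3 or F’ replicate 3, and the higher count 4 without F’ replicate 2 and 1 without any other single library. Protochlorophyllide reductase-like LOC102594293, which makes chlorophyllide in light, had 10833, 11586 and 11985 in A’ and 6852, 5556 and 7008 in F’ (Log2FC −0.83). Senescence-linked genes were lower in 9 and higher in 3 of 32 cases, the latter count being 5 without A’ replicate 1 or F’ replicate 2. STAY-GREEN LOC102597935, of chlorophyll breakdown, had 709, 739 and 776 in A’ and 412, 254 and 392 in F’ (Log2FC −1.07). DEGs made up 35.8% of the Calvin cycle class, 32.1% of chlorophyll and carotenoid synthesis and 37.5% of senescence-linked genes. These shares were near the 35.6% of all genes tested, though in each class lower genes exceeded 18.2% and higher genes fell below 17.5%.

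Marker lists placed the tissue as leaf in both groups. Mesophyll markers summed to between 705707 and 837279.5 normalized counts in A’ and between 608401 and 656655 in F’, with 4 of 11 tested genes lower and 1 higher, whereas the 2 tuber storage markers summed to no more than 14.4 in any library and were not tested. Guard cell and stomatal markers were lower in 9 and higher in 2 of 18 tested genes, with sums between 12933 and 13546 in A’ and between 8769 and 11071 in F’. Glandular trichome markers were higher in 4 and lower in 3 of 11 tested genes, with sums between 2175 and 2205 in A’ and between 1797 and 1824 in F’. Pollen and anther markers were higher in 3 and lower in 5 of 12 tested genes, with sums between 3795 and 4418 in A’ and between 3668 and 3946 in F’. Of 7 floral organ markers, 1 was tested and was higher, and the sums lay between 445 and 492 in A’ and between 562 and 792 in F’. The part of these cell types in the results for the cuticle, the terpene synthases and the protease inhibitors was not tested.

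Several of the genes above separated F’ from both other groups rather than A’ from the rest. GAST1, GAST1-like, TIP2-1, PIP2-7, the GDSL esterase/lipase LOC102582015 and the salicylate carboxymethyltransferase-like gene were lower in F’ than in either, and P450 82C4-like, the zeatin transferase LOC107061998, the cupredoxin, peroxidase P7-like LOC102582282, ammonium transporter 1 member 2 and JUNGBRUNNEN 1-like were higher. For the zeatin transferase, the B’ libraries had 3.51, 2.65 and 0.818 counts (Log2FC of F’ over B’ 5.57, FDR 9.78e-08 by edgeR’s quasi-likelihood test). For the GDSL esterase/lipase, they had 395, 324 and 218 (Log2FC −4.82). The genes were chosen for this pattern after their values were seen. By contrast, the sterol reductase LOC102584296, aspartic protease inhibitor 3, the alpha-terpineol synthase-like gene LOC102598478 and the chloroplastic small heat shock protein had Log2FC of F’ over B’ of −0.41, −0.31, 0.20 and 0.29. None of these passed the test, which does not show that F’ and B’ are alike.

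**Figure D5:**
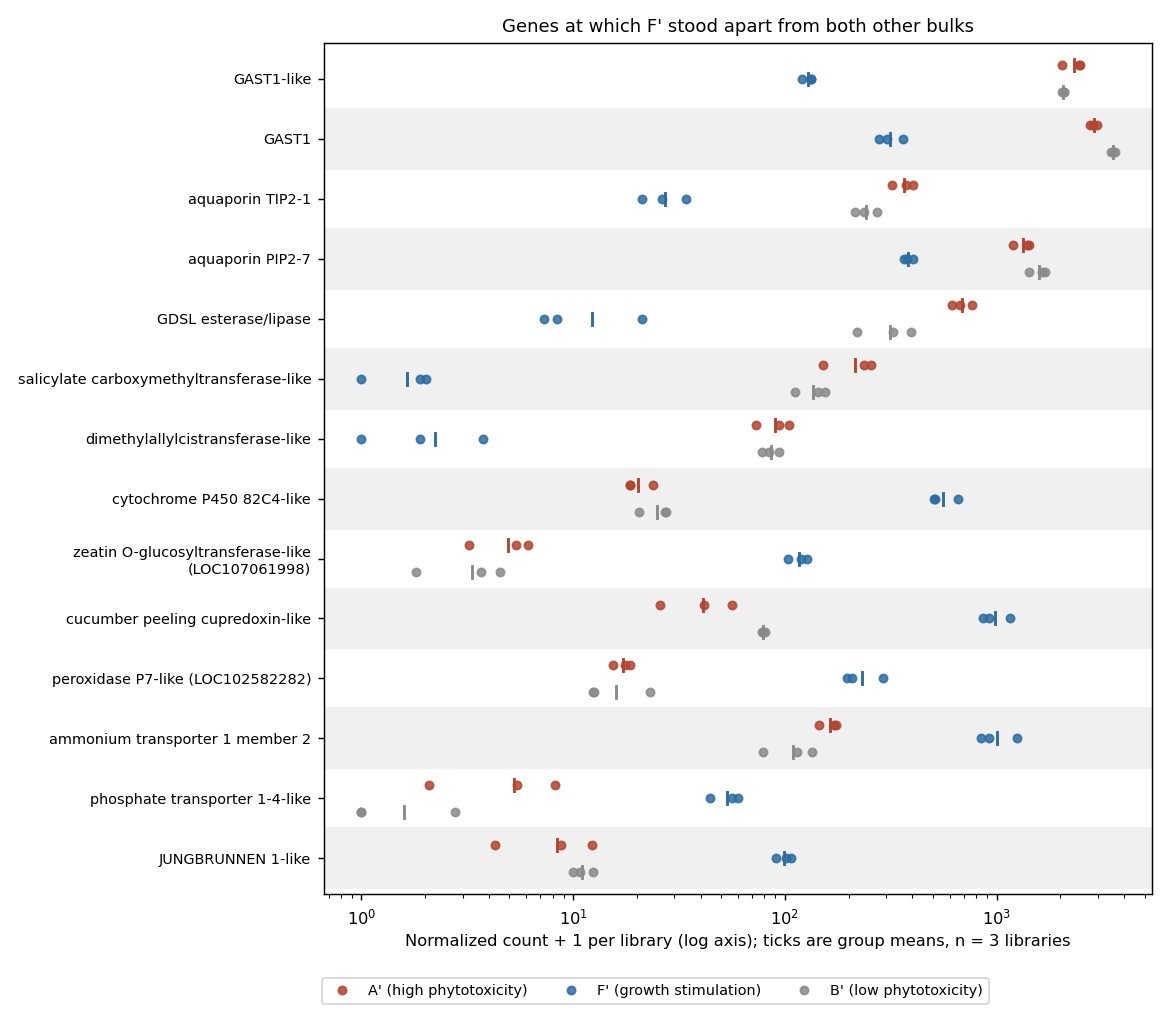
Normalized count plus 1 (log axis) of 14 genes chosen because F’ (blue) lay apart from both A’ (red) and B’ (grey), 1 point per library with a tick at the group mean. GAST1-like has a mean of 127 in F’ against 2320 in A’ and 2054 in B’, and P450 82C4-like has 556 against 19.3 and 24.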

How the data were processed

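mRNA was selected from leaf RNA, and strand-specific libraries were read as pairs on a BGISEQ-500 instrument. The deposited counts are whole reads per gene and library, made by the authors without normalization. The submitters’ processing notes name Bowtie2 2.1.0, TopHat2 2.0.9 and DESeq2, without roles, and the strand setting of the counting is not given in the sources used here. Columns with the authors’ own normalized counts, fold changes, standard errors and p-values were also deposited and were not used. Contig names are those of the SolTub_3.0 assembly.

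Counts were fitted with edgeR 4.0.16 in R 4.3.3 (filterByExpr, TMM scaling, robust quasi-likelihood test), with Benjamini-Hochberg adjustment over all genes tested. TMM factors were between 0.91 and 1.10, and the common biological coefficient of variation was 0.125. F’ was compared with B’ in a joint fit of 9 libraries on the 22988 genes that both comparisons list, for which the A’ counts are the same in either. A group with at most 3 reads in each library was at the floor, and its fold change was computed against 3 reads in each library. The scripts were tested on simulated data of 23656 genes for A’ vs. F’, where 89 of 100 genes changed 2-fold and 100 of 100 changed 4-fold were called, with 3 false calls. Only these genes were changed, in equal numbers up and down, and genes with few reads were not among them. Every gene had the same dispersion. In the data 35.6% of genes were called, so these rates do not carry over to them.

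Classes and markers are lists of words in product names, and a gene may be in more than 1 class (118 genes). The members and lists were chosen with earlier results of these data known. Named genes were, first, the 10 DEGs on each side with the largest Log2FC and no overlap. For these, genes below 50 mean normalized counts in both groups were left out. So were products without a name or named uncharacterized, flavonol synthases, and photosystem and chlorophyll a-b binding proteins. Also named were the 2 highest and 2 lowest DEGs of each class with at least 50 mean normalized counts in either group. Added to them were the sterol reductases and glycoalkaloid glycosyltransferases, and the 5 DEGs on each side with the most reads and a Log2FC of at least 1 in size. Beside these 204 genes, 40 genes were chosen after their values were seen. Alternatives were DESeq2 1.42.0, upper-quartile and RLE scaling, no filter, the replicate number as a block, the joint fit, an FDR threshold of 0.01 and leaving out each library in turn.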

Additional observations from a re-analysis of the deposited data

How the results depend on the processing

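An FDR threshold of 0.01 reduced the DEGs to 1966 higher and 2283 lower in F’, and the genes higher in F’ than in B’ to 1868. Without the filter on low counts, 597 genes were higher in F’ with a Log2FC of at least 2, against 326 with it, since 23656 genes were then tested. Leaving out each library in turn gave between 2422 and 3533 higher and between 2669 and 3827 lower DEGs. DESeq2 and the other scalings kept every count of DEGs within 1.5 times, and the share of DEGs that were higher was 46.3% at an FDR threshold of 0.01 and between 46.9% and 50.4% under the other settings.

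Replicate numbers are shared between the groups, but deviations from the group means correlated at −0.28, −0.09 and −0.02 for libraries of the same number, so the numbers do not pair them. With the replicate block, 2844 genes were higher and 3031 lower in F’, 324 and 360 of these with a Log2FC of at least 2 in size, and 2840 were higher and 3290 lower in F’ than in B’.

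Over the named genes, 3140 values under an alternative kept their direction and call, 30 lost the call, 1 gained it and none reversed. The gain was LOC107062006 without A’ replicate 1, and the losses touched LHY among the genes described. Most named genes were picked for their call in these same libraries, and 40 after their values were seen. That choice favoured agreement, so the counts are no test of stability. Of the counts and medians of classes, 1750 stayed within 1.5 times or the spread between libraries and 161 moved, and the cause was not tested. Each group is a bulk of 3 siblings, so a difference between bulks cannot be told apart from one between phenotypes.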
